A study of Mus musculus with 18 samples.

Results

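The comparison described here is that of mouse epiblast-like cells (EpiLCs) exposed to 100 nM Δ9-tetrahydrocannabinol (Δ9-THC) with EpiLCs that received the vehicle. Its members were taken from the labels: 3 exposed libraries and 3 vehicle libraries, 6 of the 18 samples of the series, with all 13717 genes of the EpiLC count table. The series also holds embryonic stem cells (ESCs) and primordial germ cell-like cells under the same exposures. The 6 ESC libraries were used only to ask whether a difference seen in EpiLCs was also present before differentiation, and the germ cell-like cells were not analysed here. All EpiLCs, exposed or not, came from a female ESC clone that carries the Blimp1::mVenus and Stella::ECFP reporters, so that they stand for 1 clone. They were derived from ESCs kept in 2i and LIF medium and were then cultured on fibronectin with activin A, basic FGF and knockout serum replacement. The exposed cells received Δ9-THC both as ESCs and during their conversion to EpiLCs, and the vehicle cells received ethanol. The labels call the replicates biological and do not say whether they were separate derivations, and p-values here measure the spread between these libraries.

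EpiLCs are the culture counterpart of the post-implantation epiblast. They leave naive pluripotency under FGF and activin signals, keep the core pluripotency factors, gain the formative genes Fgf5 and Otx2, and are competent to give rise to germ cells. Δ9-THC is the main psychoactive cannabinoid of cannabis and a partial agonist of the G protein-coupled receptor CB1. Immediate-early genes such as Egr1 answer growth factor and G protein signals within minutes through serum response factor and the ERK kinases, and Zfp36 codes for a protein that binds AU-rich elements and shortens the life of messenger RNAs.

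The adjusted counts of the 6 libraries summed to 23427551 to 32078776. The single gene model ENSMUSG00000119584 took 0.418% of the counts in exposed replicate 3 and 3.97% in exposed replicate 1, and its share did not follow the groups. Formative markers were found in all 6 libraries. Fgf5 had 12.7 to 18.1 CPM (counts scaled to a library total of 1000000) and Dnmt3b 766 to 1078 CPM over the 6 libraries. After the authors' batch adjustment, the libraries that bear the same replicate number mirrored each other. Across genes, the deviation of a vehicle library from its group mean had a Pearson correlation of -0.986, -0.985 and -0.991 with that of the exposed library of the same number, and of 0.18 to 0.72 with those of the other numbers. Klf2, a naive pluripotency factor, shows what this means for a gene. It had 24.7, 29.1 and 36.5 CPM in vehicle replicates 1, 2 and 3 and 41.1, 36 and 27.6 CPM in the exposed ones, so that the highest vehicle library was matched by the lowest exposed library. For the genes and lists described at most length, values are therefore given below for each library, and a fit with the replicate number as a block is given for the counts it changes.

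No gene passed an adjusted p-value of 0.05 in edgeR's quasi-likelihood test (0 of 13717 genes, 0%; the smallest Benjamini-Hochberg adjusted p was 0.144). Without adjustment, 1136 genes (8.28%) were higher in exposed EpiLCs and 933 (6.80%) lower at a p-value under 0.05. With offsets that remove each library's trend with GC content and gene length, these counts were 807 and 1011, so that the larger share turned from higher to lower. With the replicate block alone, 221 genes were higher and 70 lower. With the offsets and the block together, 117 genes (0.853%) were higher and 96 (0.700%) lower. In 1538 genes (11.2%) all exposed libraries lay above all vehicle libraries, and in 1449 (10.6%) all lay below. DESeq2's Wald test called 87 genes (0.634%) at the adjusted threshold of 0.05, of which 61 were higher and 26 lower. With the GC and length offsets it called 24, of which 7 were higher and 17 lower. Both DESeq2 fits, and the edgeR fits behind the SEs given below, had no replicate block. They treat the 6 libraries as independent although same-numbered libraries mirror each other.

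The genes that DESeq2 called higher were long. Their median exon length was 11792 bases against 2232 bases for those called lower and 4273 bases for all genes, and 56 of the 61 were longer than the median gene. Their median GC content was 44.3% against 54.2% for the lower ones. The part of length and GC content in these calls was not tested beyond the offsets, under which 13 of the 87 calls were also made.

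These 13 genes were called in both DESeq2 fits, and they were named after their values were seen except where a rule given in the methods also picks them. Higher in exposed EpiLCs were Txnip, Usp34, Cpeb1, Fcho2 and Hjurp. The 8 lower genes included Egr1, Ier3, Rps10, Zfp36, Adm, Spp1 and Cdc37. In none of the 13 did an exposed library overlap a vehicle library. This adds no separate support, since the genes were chosen by p-values from these same libraries. Their adjusted p-values were 0.144 to 0.161 with edgeR, 3.82e-08 to 0.0428 with DESeq2 and 2.36e-08 to 0.0490 with DESeq2 and the offsets. Over the other edgeR fits they ran from 0.144 to 1.00 (Benjamini-Hochberg).

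**Figure D1:**
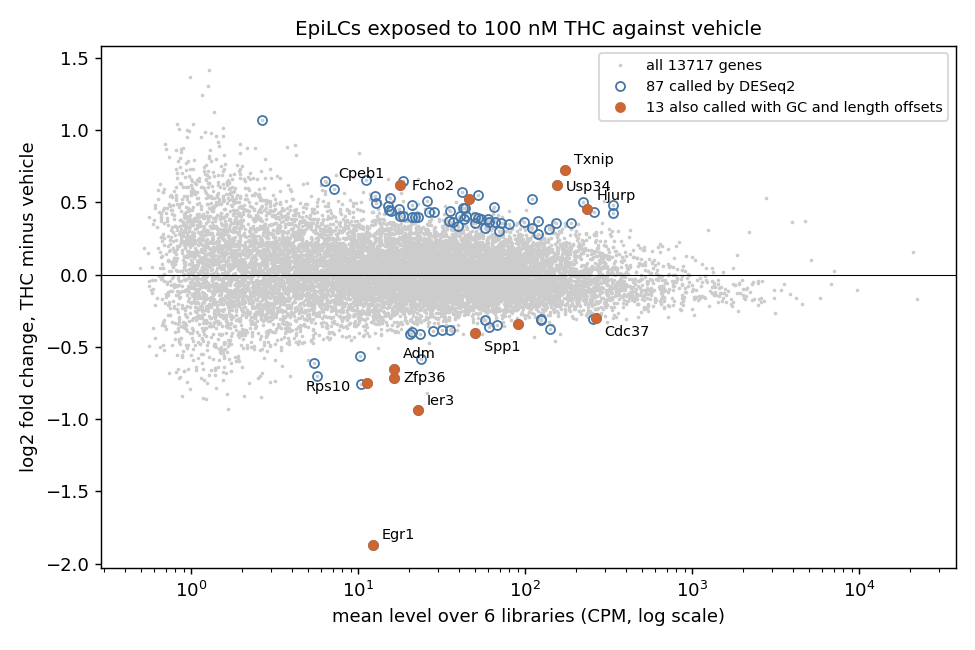
Each point is a gene of the EpiLC table, with its mean level over the 6 libraries in CPM on a log axis and its log2 fold change of exposed over vehicle libraries from edgeR. Open circles mark the 87 genes called by DESeq2 and filled circles the 13 called also with the GC content and gene length offsets; Egr1 lies lowest, at -1.87.

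The stretches just upstream of 3 of these genes are shown because their transcription is known to answer signals: Zfp36 and Ier3 as immediate-early genes, and Txnip as a gene driven by glucose. They are the 250 bases before the transcription start from RefSeq (GRCm38.p6), in the direction of the gene, at chr7:28379229-28379478 on the minus strand for Zfp36, chr17:35821463-35821712 on the plus strand for Ier3 and chr3:96557707-96557956 on the plus strand for Txnip. Capitals mark matches to the motifs searched on both strands.
Zfp36: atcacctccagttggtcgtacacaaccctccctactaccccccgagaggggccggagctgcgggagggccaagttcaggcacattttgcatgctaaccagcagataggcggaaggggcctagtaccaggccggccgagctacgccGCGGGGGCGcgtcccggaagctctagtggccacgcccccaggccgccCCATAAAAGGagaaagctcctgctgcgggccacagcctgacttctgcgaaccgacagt
Ier3: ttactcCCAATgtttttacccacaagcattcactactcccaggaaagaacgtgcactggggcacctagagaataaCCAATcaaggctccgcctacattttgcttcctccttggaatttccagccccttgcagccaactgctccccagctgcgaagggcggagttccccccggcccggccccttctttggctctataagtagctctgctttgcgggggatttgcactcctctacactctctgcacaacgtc
Txnip: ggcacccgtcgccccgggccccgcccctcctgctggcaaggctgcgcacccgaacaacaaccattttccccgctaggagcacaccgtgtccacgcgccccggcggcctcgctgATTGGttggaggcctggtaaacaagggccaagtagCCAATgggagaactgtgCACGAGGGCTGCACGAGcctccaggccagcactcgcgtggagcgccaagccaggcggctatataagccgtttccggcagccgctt
The Zfp36 stretch held 1 CArG box, the site of serum response factor, whose first base lies 58 bases before the start, and 1 EGR site (GCGNGGGCG), bound by the EGR1 protein, at 105 bases. A CArG box was found in 1.47% and an EGR site in 4.70% of the 32851 upstream stretches in the table. The Ier3 stretch held 2 CCAAT boxes (CCAAT), a motif found in 33.8% of the stretches. The Txnip stretch held 2 CCAAT boxes and 1 carbohydrate response element (2 boxes CACGNG with 5 bases between them), the site of the glucose-sensing factors MondoA and ChREBP, at 85 bases. That pattern was found in 0.0457% of the stretches. It occurred upstream of 14 genes, of which 9 were measured, and their log2 fold changes were mixed. They were 0.73 for Txnip, 0.44 for Fnip1, 0.18 for Fem1b and 0.005 for Irak1bp1. Lower values were -0.24 for Nfkb2, -0.14 for Fkbp6, -0.11 for A430005L14Rik, -0.08 for Rbbp4 and -0.01 for Man2b2. The cAMP response element (TGACGTCA), the E-box (CACGTG) and the TATA box (TATAAA) were searched too, were found in 1.55%, 6.02% and 12.4% of the stretches, and had no match in these 3. A match is a description of the letters only.

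Among the immediate-early genes, Egr1, Zfp36 and Ier3 were called lower by DESeq2, and the rest of the list was not called. Egr1 (ENSMUSG00000038418), a zinc finger transcription factor induced by mitogens, had 13.7, 23.2 and 20.4 CPM in the vehicle libraries and 7.37, 3.50 and 4.82 CPM in the exposed ones. The exposed libraries all lay under the lowest vehicle library. The log2 fold change of Egr1 was -1.87 (SE 0.30), -1.83 with the block and the offsets. Zfp36 (ENSMUSG00000044786) had 19.9, 20.8 and 20.3 CPM with the vehicle and 12.6, 12.1 and 12.4 CPM with Δ9-THC, with less than 1 CPM between the libraries of a group. Zfp36 thus differed by -0.72 (SE 0.06) on the log2 scale, and by -0.66 with the block and the offsets. Ier3 (ENSMUSG00000003541), an early response gene tied to cell survival, had 36.4, 28.4 and 24.4 CPM with the vehicle and 12.1, 16.4 and 18.02 CPM with Δ9-THC. Ier3 differed by -0.94 (SE 0.19), and by -0.85 with the block and the offsets, and the gap between the groups was widest in replicate 1.

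Of the 28 immediate-early genes listed, 23 were measured and 13 had higher and 10 lower values in exposed EpiLCs, with a median log2 fold change of 0.04 against 0.003 for all genes. At an unadjusted p-value under 0.05, 4 were lower (Egr1, Zfp36, Ier3 and Arc) and 2 higher (Myc and Klf10), beside 6.80% and 8.28% of all genes. With the block and the offsets these counts were 3 and 1, beside 0.700% and 0.853% of all genes. Nr4a1 and Jun were also without overlap, at log2 fold changes of -0.13 and 0.18. Arc, an activity-regulated gene of neurons, had a mean of 12.3 CPM with the vehicle and 9.19 CPM with Δ9-THC. Klf10 had 111 and 122 CPM and Myc 62.1 and 73.9 CPM. Mcl1, the list's most abundant member in CPM, had 713 and 738 CPM. Fos, Fosb, Fosl1, Egr2 and Egr3 were not in the table. The 14 ERK feedback genes and targets had a median log2 fold change of 0.04. Of the 14, 1 was higher at an unadjusted edgeR p-value under 0.05, beside 8.28% of all genes, and 0 with the block and 0 with the block and the offsets. It was Spry2, an inhibitor of receptor tyrosine kinase signals. Spry2 had 42.4, 43.2 and 44.0 CPM in the vehicle libraries and 52.3, 51.9 and 50.8 CPM in the exposed ones.

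Txnip (ENSMUSG00000038393), an arrestin-like protein that binds thioredoxin and limits glucose uptake, had the largest positive fold change of the 13 genes. It had 115, 122 and 150 CPM in the vehicle libraries and 235, 225 and 181 CPM in the exposed ones, a log2 fold change of 0.73 (SE 0.14) with and without the block and the offsets. Arrdc4, a relative of Txnip that is also known as a glucose-responsive gene, had 71.2, 64.0 and 74.1 CPM with the vehicle and 71.1, 79.6 and 69.0 CPM with Δ9-THC, and these overlapped. Fnip1, a folliculin partner in nutrient sensing, was called by DESeq2 but not with the offsets. It had 30.3, 29.8 and 29.6 CPM with the vehicle and 39.8, 41.0 and 41.0 CPM with Δ9-THC, with little spread inside either group.

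The other 4 genes higher in both DESeq2 fits have unlike roles. Usp34, a ubiquitin protease of the Wnt pathway, had 129, 122 and 114 CPM with the vehicle and 175, 187 and 197 CPM with Δ9-THC. The fitted log2 difference was 0.62 (SE 0.07), and 0.40 with the block and the offsets, a drop shared by other long genes. Cpeb1, which binds the polyadenylation element of messenger RNAs, had 14.5, 13.2 and 14.1 CPM with the vehicle and 20.3, 22.7 and 21.1 CPM with Δ9-THC. The fitted difference of 0.62 (SE 0.08) was 0.60 with the block and the offsets. Hjurp, the chaperone that deposits the centromeric histone CENP-A, had 189, 194 and 212 CPM with the vehicle and 282, 279 and 254 CPM with Δ9-THC. It differed by 0.45 in log2 units, and by 0.38 with the block and the offsets. Fcho2, a membrane-bending protein of clathrin-coated pits, had 39.2, 39.5 and 34.3 CPM and 51.8, 52.0 and 58.7 CPM, or 0.52 in log2 units and 0.34 with the block and the offsets.

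Among the lower genes, 2 code for secreted proteins. Spp1, the secreted matrix phosphoprotein osteopontin, had 57.4, 56.9 and 56.2 CPM with the vehicle and 42.2, 43.2 and 43.5 CPM with Δ9-THC. Within each group these libraries differed by about 1 CPM, and the log2 fold change was -0.40 (SE 0.05), or -0.42 with the block and the offsets. Adm, the peptide hormone adrenomedullin and a hypoxia target, had 21.8, 19.6 and 18.1 CPM with the vehicle and 11.3, 12.9 and 13.7 CPM with Δ9-THC, a log2 difference of -0.65 that was -0.61 with the block and the offsets. Cdc37, the co-chaperone that brings kinases to HSP90, had 277, 301 and 294 CPM and 246, 228 and 234 CPM, with -0.30 in log2 units and -0.37 with the block and the offsets. Rps10 had 14.6, 14.0 and 13.9 CPM with the vehicle and 7.99, 8.58 and 8.57 CPM with Δ9-THC. Near-identical copies of this ribosomal protein gene exist in the genome and the authors counted uniquely mapped reads, so its value is uncertain.

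**Figure D2:**
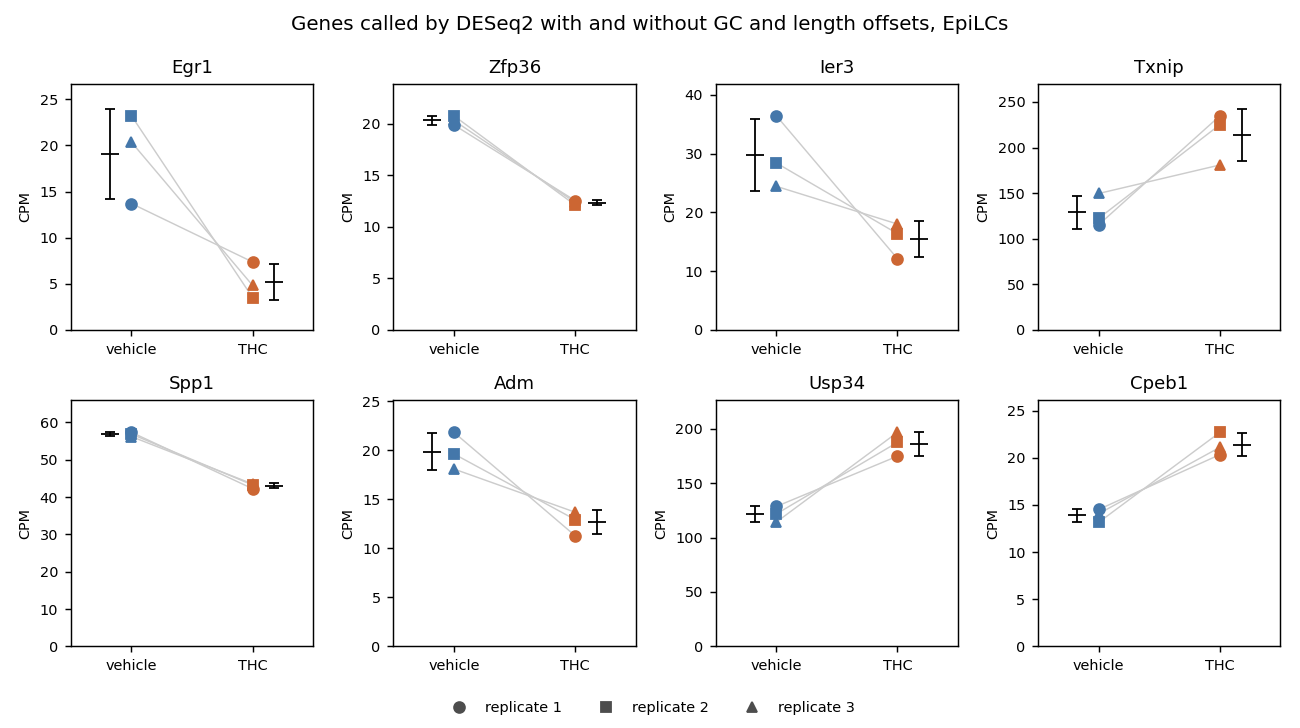
CPM of 8 of the 13 genes in each EpiLC library, with a marker for each replicate number, grey lines between libraries of the same number and black bars for the mean ± SD of 3 libraries. In each panel the 3 exposed libraries lie on one side of the 3 vehicle libraries, the genes having been chosen by p-values from these libraries. Zfp36 and Spp1 have the least spread within groups.

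The rule of the methods that ranks genes by fold change, among those with p-values that held with the block and the offsets, was met by 73 higher and 56 lower genes. The 12 highest were scarce, with group means of 0.677 to 3.60 CPM. They were Gm2225, Ptchd1, Hacd4, Cldn34c1, Gm26873, Il20rb, Gm7173, St3gal6, Gm38220, Gm13140, Gm49338 and Gm40466, with log2 fold changes of 0.92 to 1.42. Ptchd1, a patched-domain protein known from neurodevelopment, had 0.721, 0.629 and 0.841 CPM with the vehicle and 1.79, 2.01 and 1.59 CPM with Δ9-THC. Hacd4, an enzyme of very long fatty acid elongation, had 0.756, 0.629 and 0.664 CPM and 1.52, 1.73 and 1.62 CPM. Of the 12, Gm26873 was called by DESeq2, which gave the others no adjusted p-value. With the offsets Gm26873 had none either. It is annotated as antisense, and since strand was not used in counting its reads cannot be told from those of the gene opposite. Gm2225, Gm13140 and Gm40466 are annotated as pseudogenes, whose reads could be shared with related genes.

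The 12 lowest, beside Egr1, Ier3 and Rps10, were Plau, Pelo, Cbx8, Rgs16, Tnfsf9, Gm11585, Crybg1, Col8a2 and Rbp7, with log2 fold changes of -0.86 to -0.74. Plau, the urokinase protease that activates plasminogen, had 1.55, 1.63 and 1.55 CPM with the vehicle and 0.857, 0.826 and 0.911 CPM with Δ9-THC. Rgs16, which shuts off G protein signals, had 2.06, 2.26 and 1.90 CPM with the vehicle and 1.17, 1.06 and 1.28 CPM with Δ9-THC. Cbx8, a chromobox protein of Polycomb complex 1, had 2.47, 2.45 and 3.01 CPM and 1.56, 1.61 and 1.25 CPM. With the block and the offsets the log2 fold changes were -0.85 for Plau, -0.76 for Rgs16 and -0.78 for Cbx8. Gm11585 is a processed pseudogene with the same caution as above.

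The chromatin regulators Tet2, Kmt2c, Dzip3 and Mysm1 were higher in every exposed library, and their differences shrank once GC content and length were taken into account. Tet2, which oxidizes 5-methylcytosine, had 37.1, 39.5 and 33.9 CPM in the vehicle libraries and 50.1, 47.2 and 54.7 CPM in the exposed ones. Its log2 fold change was 0.46 (SE 0.09), and 0.28 with the block and the offsets. Kmt2c, a histone H3 lysine methyltransferase of enhancers, had 51.6, 50.5 and 55.8 CPM with the vehicle and 68.3, 70.7 and 63.7 CPM with Δ9-THC, which gave 0.36 (SE 0.07) in log2 units and 0.18 with the block and the offsets. Dzip3, a ubiquitin ligase for histone H2A, had 37.4, 37.5 and 31.1 CPM and 45.8, 46.2 and 54.3 CPM, or 0.46 in log2 units and 0.31 with the block and the offsets. Mysm1, a histone H2A deubiquitinase, had 31.1, 33.6 and 32.5 CPM and 43.1, 40.3 and 41.6 CPM, or 0.36 and 0.21. Adjusted p-values of the 4 genes were 0.144 to 0.172 with edgeR, 0.0178 to 0.0460 with DESeq2 and 0.140 to 0.638 with DESeq2 and the offsets, and 0.144 to 1.00 over the other edgeR fits. The exons of Tet2 and Kmt2c span 16870 and 20291 bases. Over all 102 measured epigenetic modifiers, 64 were higher and 38 lower, 16 and 5 of them at an unadjusted p-value under 0.05, beside 8.28% and 6.80% of all genes. With the block and the offsets 1 and 0 of them had such a p-value, beside 0.853% and 0.700% of all genes. The median log2 fold change was 0.05, with 0.10, -0.11 and 0.12 within replicate numbers 1, 2 and 3 and 0.003 to 0.08 without single libraries. With the offsets 48 were higher and 54 lower and the median was -0.02.

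Most proteasome genes were lower by a small amount. The proteasome list of 31 subunits had 30 members with lower values, 10 of them at an unadjusted p-value under 0.05 and 13 without overlap, while 6.80% and 10.6% of all genes were so. With the block 1 member was lower at such a p-value, and 2 with the block and the offsets. Of all 13717 genes, 70 and 96 were so. Its summed level was 7630.2, 7847 and 7752 CPM in the vehicle libraries and 6965, 6810.4 and 6907 CPM in the exposed ones, a difference of -10.96% with no overlap. The median log2 fold change was -0.18, and -0.15 with the block and the offsets, and with the offsets alone all 31 members had lower values. It was -0.12, -0.19 and -0.17 within replicate numbers 1, 2 and 3. Psmc5, an ATPase of the 19S cap called by DESeq2 (adjusted p 0.0182 by Benjamini-Hochberg, 0.367 with the offsets), had 271, 284 and 286 CPM with the vehicle and 233, 224 and 222 CPM with Δ9-THC. Psmc4, another of the ATPases, had 236, 241 and 239 CPM and 203, 201 and 202 CPM. Psma2, of the core ring, had 269, 269 and 254 CPM and 215, 218 and 229 CPM, and was called by DESeq2 with the offsets alone. Psmd2, the member with the highest CPM, had 444, 540.1 and 470.4 CPM and 476, 383 and 452 CPM, which overlapped.

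Ribosome assembly genes behaved alike in size. Of 28 measured, 24 were lower, 8 at an unadjusted p-value under 0.05 and 13 without overlap, beside 6.80% and 10.6% of all genes. With the block, and with the block and the offsets, 0 members had such a p-value, while 70 and 96 of all 13717 genes were lower at it. The list summed to 16478, 16794 and 16873 CPM in the vehicle libraries and 15286, 15138 and 15058 CPM in the exposed ones, a difference of -9.30%. The median log2 fold change was -0.16, with -0.16, -0.23 and -0.13 within the replicate numbers and -0.15 with the block and the offsets. Npm1, the nucleolar chaperone nucleophosmin, had 6083, 6139 and 6074 CPM with the vehicle and 5430.0, 5446 and 5477 CPM with Δ9-THC. Rrp9, a U3 snoRNP protein, had 115, 119 and 113 CPM and 98.5, 96.2 and 101 CPM, and Pes1 and Nop2, of large-subunit assembly, had log2 fold changes of -0.21 and -0.26.

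All 23 cytosolic aminoacyl-tRNA synthetase genes had lower values, with a median log2 fold change of -0.19, and 10 of them did not overlap, beside 10.6% of all genes. The size of this differed between replicate numbers, at -0.06, -0.46 and -0.02. At an unadjusted edgeR p-value under 0.05, 5 synthetase genes were lower, and 0 with the block and 1 with the block and the offsets. Of all 13717 genes, 933, 70 and 96 were so. Farsa, the alpha subunit of the phenylalanine enzyme, had 120.4, 125 and 115 CPM with the vehicle and 98.7, 96.2 and 104 CPM with Δ9-THC. The 8 chaperonin subunits were also all lower, by a median of -0.19, of which replicate number 2 gave -0.51 and replicate number 3 gave 0.01. Among 27 translation factors 24 were lower, with a median of -0.14.

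Genes of the respiratory chain and the ribosome were lower on average, and 1 replicate number went the other way. All 37 subunits of complex I had negative log2 fold changes, with a median of -0.17. Their summed level was 2726, 2369 and 2757 CPM in the vehicle libraries and 2229, 2559 and 2226 CPM in the exposed ones. The exposed replicate 2 thus lay above vehicle replicate 2, and the medians within the replicate numbers were -0.35, 0.25 and -0.33. Members that did not overlap numbered 6, beside 10.6% of all genes. With the block 0 members passed 0.05 without adjustment, beside 70 lower ones among all 13717 genes. Among the 6 was Ndufc2, an accessory subunit, with 78.6, 88.2 and 80.4 CPM and 70.5, 62.7 and 69.4 CPM. Complexes II and III (14 of 14 lower) had medians of -0.17, 0.10 and -0.13 within the numbers, complex IV (11 of 11) -0.42, 0.27 and -0.39, and ATP synthase (15 of 16) -0.38, 0.18 and -0.29. The summed level of complexes II and III did not overlap, at 2142, 2073 and 2079 CPM against 1842, 1900.4 and 1906 CPM. That of ATP synthase did not overlap either, at 5315, 5710.3 and 5329 CPM against 4853, 4484 and 4859 CPM, so that its sum in replicate number 2 was lower while the median of its genes was higher.

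The 48 measured genes of the large ribosomal subunit were all lower, by a median of -0.13, and had medians of -0.42, 0.41 and -0.33 within the replicate numbers. They summed to 59059, 46788 and 58864 CPM in the vehicle libraries and 46683, 57772 and 47349 CPM in the exposed ones, so the groups overlapped widely. With the block and the offsets the median was -0.07. The 31 genes of the small subunit followed them, 30 lower with a median of -0.11. Of the 74 mitochondrial ribosome genes 70 were lower. Of these, 14 had an unadjusted p-value under 0.05 and 20 did not overlap, beside 6.80% and 10.6% of all genes. With the block and the offsets 3 had such a p-value, beside 0.700% of all genes. Mrpl37, of its large subunit, had 81.4, 83.4 and 81.0 CPM with the vehicle and 69.7, 68.7 and 70.5 CPM with Δ9-THC.

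The 10 measured genes of the mitochondrial genome had positive log2 fold changes, with a median of 0.18, and no member was separated between the groups. They summed to 29270.0, 28279 and 54563 CPM in the vehicle libraries and 53155, 53870.0 and 24173 CPM in the exposed ones. Within replicate numbers 1 and 2 they were higher by 0.83 and 0.89, and within replicate number 3 lower, at -1.13. Without single libraries the median ran from -0.02 to 0.57. mt-Nd2, a complex I subunit, had 1712, 1785 and 3275 CPM and 4048, 3917 and 1807 CPM.

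**Figure D3:**
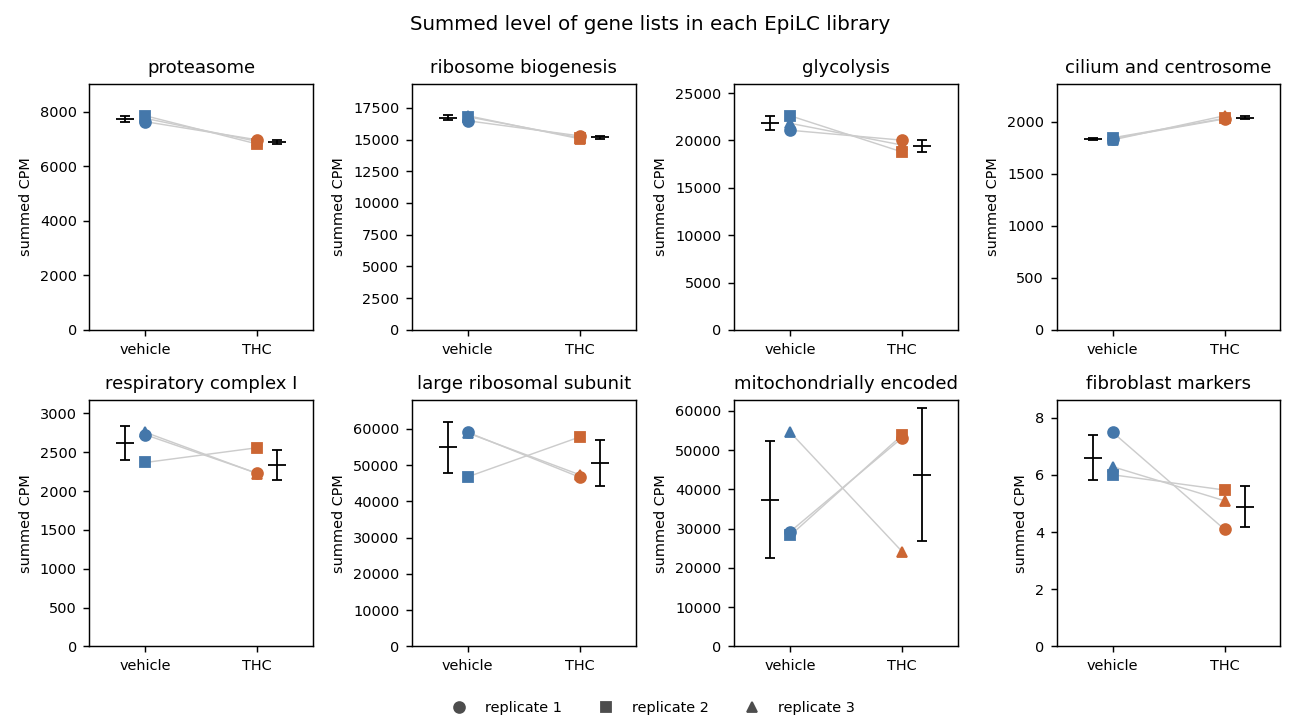
Summed CPM of 8 gene lists in each EpiLC library, with a marker for each replicate number, grey lines between libraries of the same number and black bars for the mean ± SD of 3 libraries. The proteasome, ribosome biogenesis, glycolysis, cilium and fibroblast lists do not overlap between the groups, while complex I, the large ribosomal subunit and the mitochondrial genome cross between the numbers.

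Genes of the cilium and the centrosome were higher, and they are long. Of 41 measured, 35 were higher, 11 at an unadjusted p-value under 0.05 and 11 without overlap, while 8.28% and 11.2% of all genes were so. The 11 with such a p-value were 3 with the block, 4 with the offsets and 0 with both. Of all 13717 genes, 221, 807 and 117 were higher at it. With the offsets 6 did not overlap, beside 1206 higher ones among all genes. They summed to 1836, 1844 and 1824 CPM in the vehicle libraries and 2025, 2030.5 and 2055 CPM in the exposed ones, a difference of 11.04%, and the medians within the replicate numbers were 0.17, 0.17 and 0.12. The median log2 fold change was 0.15 and became 0.06 with the offsets, with 29 higher and 12 lower. The median exon length of the list was 7674 bases and its median GC content 44.8%, against 4273 bases and 49.8% for all genes. Cep290, a protein of the ciliary transition zone called by DESeq2 but not with the offsets, had 20.4, 19.3 and 19.3 CPM with the vehicle and 24.8, 26.6 and 26.3 CPM with Δ9-THC. Cep192, which recruits material to the centrosome, had 129, 134 and 126 CPM and 154, 151 and 159 CPM. Ift140, of retrograde transport in the cilium, had 15.5, 16.8 and 16.4 CPM and 20.8, 19.3 and 19.8 CPM.

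Motor proteins had a like pattern: 31 of 48 kinesins and dyneins were higher, 12 at an unadjusted p-value under 0.05 beside 8.28% of all genes, and the median of 0.10 became 0.02 with the offsets. The 12 were 3 with the block, 5 with the offsets and 1 with both, beside 221, 807 and 117 of all 13717 genes. Kif1a, a vesicle motor, had 54.3, 60.9 and 56.0 CPM with the vehicle and 75.0, 66.9 and 73.2 CPM with Δ9-THC. Tubulins, which are short genes, were lower in 13 of 15 cases, with a median of -0.14 and of -0.06 with the offsets. Among 328 zinc finger genes of the Zfp series 225 were higher and 103 lower, with a median of 0.08 that became 0.04 with the block and the offsets. Within replicate numbers 1 and 2 the medians were 0.01 and -0.01 and within replicate number 3 it was 0.22, and without exposed replicate 3 the median of the list was 0.04. Single members ran from -0.72, for Zfp36, to 0.86.

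In glucose metabolism, 14 of 18 glycolysis genes were lower, 6 without overlap beside 10.6% of all genes, and the list summed to 21076, 22608 and 21809 CPM in the vehicle libraries and 20029, 18784 and 19511 CPM in the exposed ones, a difference of -10.9%. Gapdh had 4791, 4718 and 4947 CPM with the vehicle and 4183, 4301 and 4086 CPM with Δ9-THC. Eno1, enolase, had 3168, 3641 and 3439.5 CPM and 3038, 2640.3 and 2824 CPM, and Ldhb, a lactate dehydrogenase subunit, 163, 152 and 163 CPM and 135, 147 and 136 CPM. Of the 4 higher members the glucose transporter gene Slc2a3 differed most, with 608, 608 and 628 CPM and 707, 715 and 689 CPM. The list's median log2 fold change was -0.14, and -0.10 with the offsets. With the offsets 3 members were lower without overlap, beside 1594 of all 13717 genes. At an unadjusted edgeR p-value under 0.05, 3 members were lower, and 0 with the block and 0 with the block and the offsets. Of all 13717 genes, 933, 70 and 96 were so. Of the 20 genes of pyruvate oxidation and the tricarboxylic acid cycle 17 were lower, with a median of -0.11. Replicate number 2 gave a median of -0.35 and the other numbers -0.04 and -0.03, and without single libraries the median ran from -0.16 to -0.07. Outside this list, Pck2, the mitochondrial enzyme that makes phosphoenolpyruvate, was named after its values were seen. It had 279, 266 and 279 CPM with the vehicle and 223, 237 and 225 CPM with Δ9-THC.

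Lists of other metabolic and growth pathways had small medians. Serine and one-carbon enzymes were lower in 11 of 11 cases (median -0.12), purine synthesis in 13 of 16 (-0.12), pyrimidine synthesis in 12 of 13 (-0.08), DNA replication in 24 of 30 (-0.12) and cytosolic heat shock proteins in 11 of 12 (-0.13). Within replicate numbers 1, 2 and 3 the medians were -0.12, -0.38 and 0.04 for serine and one-carbon enzymes, -0.11, -0.29 and 0.22 for purine synthesis and 0.00, -0.20 and -0.03 for DNA replication, so that replicate number 2 was the lowest in each. Without single libraries purine synthesis ran from -0.18 to -0.05. Cholesterol synthesis had 10 higher and 11 lower members and a median near 0. Splicing factors had 28 of 37 lower (median -0.07, and -0.14 with the offsets), among them U2af1, which reads the 3′ splice site, with 311, 296 and 317 CPM against 251, 268 and 249 CPM.

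**Figure D4:**
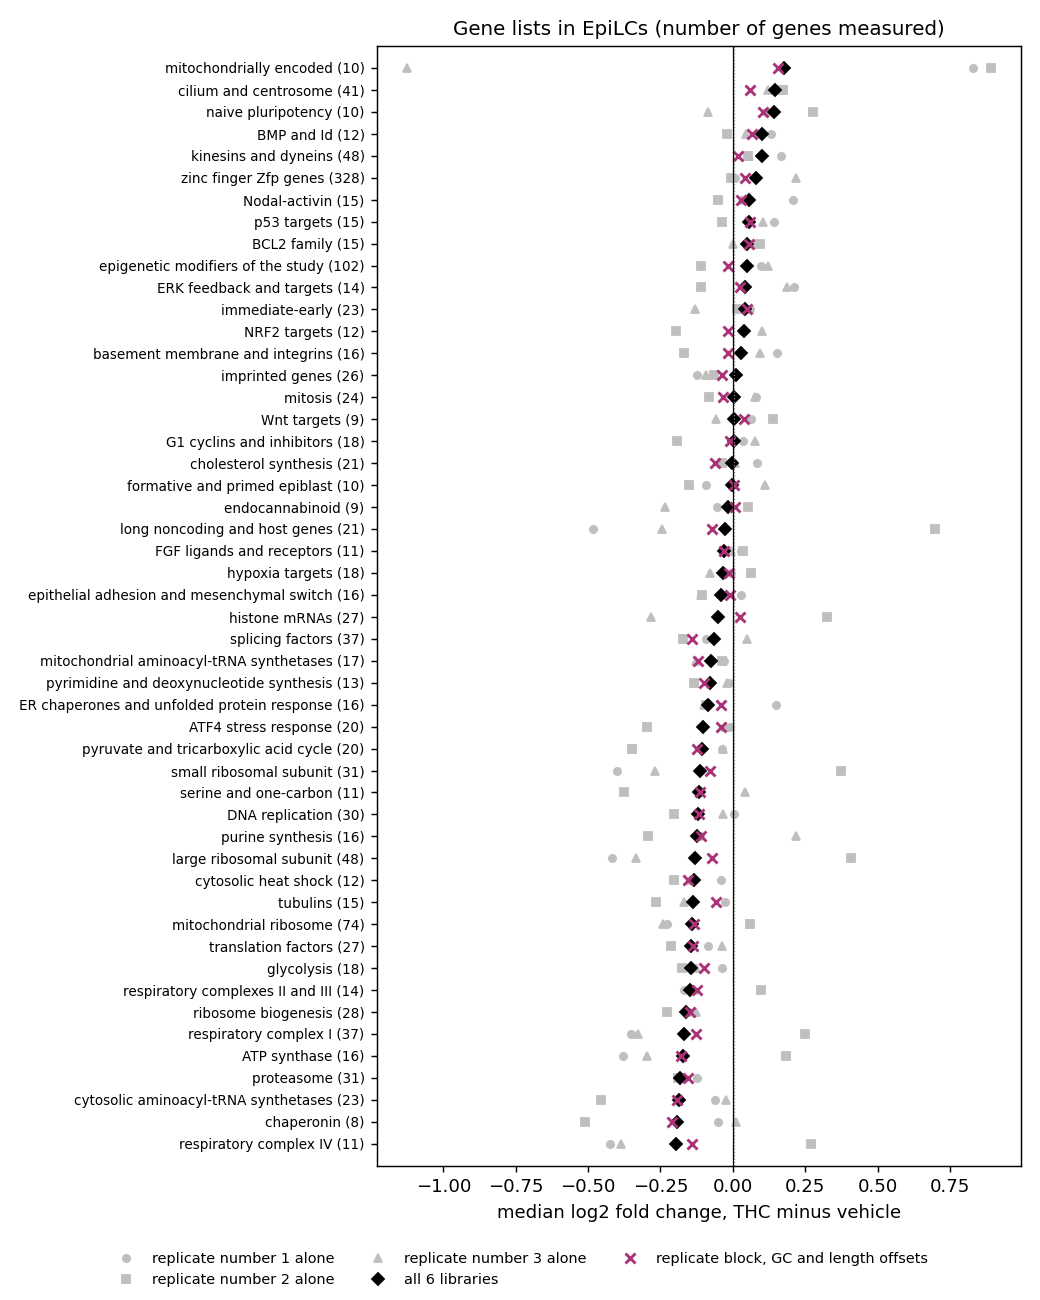
Median log2 fold change of exposed over vehicle EpiLCs for each list with at least 8 measured genes, from all 6 libraries (diamonds), with the replicate block and the GC content and length offsets (crosses) and within each replicate number alone (grey markers). Proteasome, ribosome biogenesis and cilium genes keep their side of 0 in the 3 numbers, while ribosomal proteins, respiratory complexes and the mitochondrial genome do not.

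Most formative genes overlapped between the groups. The exception was Lef1, a Wnt effector, with a log2 fold change of -0.17, while 10.6% of all genes were lower without overlap. Of the 10 formative and primed epiblast genes 5 were higher and 5 lower, with log2 fold changes of -0.17 to 0.07 and a median near 0, and their sum was 2093, 2234 and 1878 CPM with the vehicle and 2056, 1915 and 2272 CPM with Δ9-THC. The naive genes had 9 of 10 members with higher values and a median of 0.14. They summed to 345, 342 and 376 CPM and 399, 406 and 367 CPM, and these sums overlapped. Nanog, a core of the naive network, had 189, 179 and 192 CPM with the vehicle and 200.4, 214 and 199 CPM with Δ9-THC. Esrrb had 24.4, 27.8 and 32.3 CPM and 38.7, 34.6 and 29.4 CPM. Pou5f1, which codes for OCT4, was the member of the core list that did not overlap, with 375, 358 and 369 CPM in the vehicle libraries and 305, 324 and 312 CPM in the exposed ones. Its log2 fold change was -0.23 (SE 0.06) and became -0.13 with the block and the offsets. With the offsets 0 of the 4 core genes were lower without overlap. Without them it was 1 of 4, beside 10.6% of all genes. Sox2 had 81.9, 89.9 and 105 CPM and 119, 111 and 93.4 CPM.

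Germ cell genes were mixed, with 5 of 7 measured members higher. Prdm14, a germ cell and naive regulator, had 0.790, 0.880 and 1.11 CPM with the vehicle and 1.52, 1.46 and 1.21 CPM with Δ9-THC, and Ddx4, a germ cell RNA helicase, had 27.3, 31.1 and 25.0 CPM and 36.9, 31.7 and 39.9 CPM. Dppa3, whose product is Stella, had 21.2, 18.1 and 20.7 CPM and 15.7, 18.6 and 16.4 CPM, and its log2 fold change was -0.24 (SE 0.10).

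Markers of other cell types were in the table in part. Of 8 primitive streak and mesoderm markers 4 were in the table, at summed levels of 10.7 to 12.4 CPM over the 6 libraries, and T, Mesp1, Gsc and Evx1 were not in it. Endoderm markers numbered 2 of 7, with 7.39 to 8.48 CPM with the vehicle and 8.57 to 9.88 CPM with Δ9-THC. Neural markers numbered 3 of 6, at 16.7 to 21.1 and 18.9 to 24.1 CPM, trophoblast markers 3 of 7, at 81.0 to 115 and 77.3 to 108 CPM, and markers of 2-cell-like cells 3 of 6, at 6.85 to 8.31 and 6.70 to 8.42 CPM. Most of the trophoblast sum came from the epithelial keratins Krt18 and Krt8, with vehicle means of 65.5 and 26.2 CPM, and Cdx2, Elf5, Gata3 and Hand1 were not in the table. The 3 fibroblast genes in the table of 6 listed were lower, at 7.49, 6.002 and 6.29 CPM with the vehicle and 4.09, 5.47 and 5.09 CPM with Δ9-THC. Col1a1, a fibrillar collagen, had 1.89, 1.67 and 1.95 CPM and 1.17, 1.42 and 1.18 CPM. Their part in the differences above was not tested, and in bulk RNA fewer cells of a type and less RNA per cell cannot be told apart.

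Signalling lists had few members past an unadjusted edgeR p-value of 0.05. These were 1 of 9 endocannabinoid genes, 1 of 12 BMP and Id genes and 1 of 11 FGF ligands and receptors. They were 0 of 15 Nodal and activin genes and 1 of 9 Wnt targets. Of all genes 8.28% were higher and 6.80% lower at it. In the endocannabinoid list, 9 of 16 genes were measured. Cnr1, the CB1 receptor gene, had 2.27, 2.80 and 2.66 CPM with the vehicle and 3.47, 2.83 and 3.00 CPM with Δ9-THC, and Cnr2 was not in the table. Daglb, which makes the endocannabinoid 2-arachidonoylglycerol, had 5.63, 6.03 and 6.42 CPM and 4.64, 4.41 and 4.12 CPM, a log2 fold change of -0.46 (SE 0.10). In the BMP and Id list, Id3, an inhibitor of helix-loop-helix factors, had 1.61, 2.07 and 2.35 CPM and 4.05, 3.42 and 3.00 CPM, and the list's median was 0.10. FGF ligands and receptors had a median of -0.03, Nodal and activin genes 0.06 and Wnt targets 0.00. Sos1, the exchange factor that activates RAS, had 69.0, 72.8 and 64.5 CPM and 84.1, 80.2 and 89.8 CPM, and its log2 fold change of 0.30 became 0.14 with the block and the offsets.

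Stress responses were likewise mixed. The 20 ATF4 targets had 14 lower members and a median of -0.10, the 12 NRF2 targets a median of 0.04 and the 16 endoplasmic reticulum chaperones -0.09. Ddit4, an inhibitor of mTORC1, had 539, 543 and 477 CPM with the vehicle and 407, 408 and 458 CPM with Δ9-THC. Of 15 p53 targets 10 were higher, with a median of 0.06. Pmaip1, the pro-apoptotic factor NOXA, had 127, 133 and 118 CPM and 155, 149 and 167 CPM. In the cell cycle, Ccnd2, cyclin D2, had 17.3, 19.7 and 19.1 CPM and 26.2, 23.2 and 24.0 CPM, while Cdkn2d, a CDK4 inhibitor, had 11.6, 11.9 and 12.8 CPM and 10.1, 9.96 and 9.21 CPM. The 24 mitosis genes had 15 higher members and a median near 0.

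Across 13696 genes, the log2 fold change had a Spearman correlation of -0.299 with GC content and 0.338 with exon length. These genes share the same 6 libraries and are not replicates. With the genes in 5 equal classes, the median log2 fold change was 0.08 in the GC-poorest class and -0.08 in the GC-richest. From the shortest to the longest class it went from -0.08 to 0.12. With the offsets the medians of the classes lay between -0.03 and 0.00. In the GC-poorest class the median deviation of vehicle replicate 3 from the mean of all 6 libraries was -0.11. That of exposed replicate 3 was 0.11, while the other 4 libraries lay within 0.01 of that mean. In this class the 2 groups thus lay apart in replicate number 3 and close together in numbers 1 and 2. Along length they lay apart in other numbers too. In the longest class, vehicle and exposed replicate 1 lay at -0.06 and 0.06, replicate 2 at 0.01 and 0.00 and replicate 3 at -0.09 and 0.09. In the shortest class these values were 0.06 and -0.06, -0.05 and 0.06, and 0.10 and -0.08, so that replicate number 2 went the other way.

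**Figure D5:**
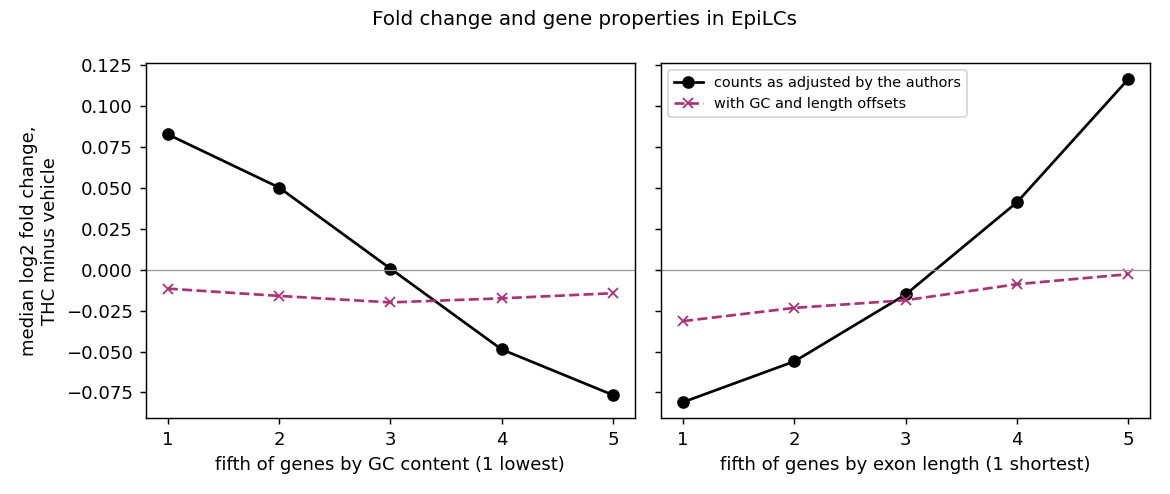
Median log2 fold change of exposed over vehicle EpiLCs in 5 equal classes of the genes by GC content (left) and by exon length (right), from the counts as adjusted by the authors (circles) and with offsets for GC content and length (crosses). The circles go from 0.08 to -0.08 along GC content and from -0.08 to 0.12 along length, and the crosses stay near 0.

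To ask whether the differences of EpiLCs were already there in ESCs, the exposure effects of both cell types were compared in 1 model over 12410 genes found in both tables. Of them, 4 genes (0.0322%) passed the adjusted threshold of 0.05 for the difference between the effects. Zfp36 was lower in exposed EpiLCs and not in ESCs, where it had 10.02, 10.9 and 10.1 CPM with the vehicle and 10.5, 9.54 and 10.4 CPM with Δ9-THC. The EpiLC effect minus the ESC effect was -0.67 in log2 units with an SE of 0.09 (adjusted p of 0.0429 by edgeR and Benjamini-Hochberg). These 4 calls were lost with the replicate block, with the GC and length offsets and without any single EpiLC library (0 genes each), while DESeq2 made 133 calls. In ESCs the share of ENSMUSG00000119584 did follow the groups, at 0.477% to 0.639% with the vehicle and 2.46% to 3.19% with Δ9-THC. Within ESCs edgeR called 906 of 13104 genes, and 2 with the GC and length offsets. The part of these library properties in the comparison was not tested. Myo6, an actin motor that moves toward the minus end, had 8.86, 8.30 and 8.76 CPM in vehicle EpiLCs and 13.1, 14.2 and 13.4 CPM in exposed EpiLCs. In ESCs it had 25.4, 27.9 and 24.4 CPM with the vehicle and 23.3, 21.1 and 24.4 CPM with Δ9-THC. Dzip1, a protein of the ciliary base, had 8.003, 7.79 and 7.75 CPM and 10.3, 10.8 and 10.7 CPM in EpiLCs, and 26.8, 29.9 and 27.9 CPM and 25.1, 22.4 and 24.2 CPM in ESCs. Cul9, a cullin scaffold that binds p53, had 3.64, 3.93 and 4.07 CPM and 5.18, 4.96 and 4.76 CPM in EpiLCs, and 3.05, 3.28 and 2.93 CPM and 1.93, 1.81 and 2.05 CPM in ESCs.

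For other genes named above the difference between the cell types did not pass the threshold, at adjusted p-values of 0.0526 for Egr1, 0.0623 for Rps10, 0.0710 for Txnip and 0.0806 for Usp34 (edgeR, Benjamini-Hochberg). Egr1 had 23.4, 29.6 and 25.7 CPM in vehicle ESCs and 29.1, 22.5 and 26.5 CPM in exposed ESCs, and these overlapped. Txnip had 65.5, 62.0 and 58.1 CPM and 55.6, 59.1 and 63.0 CPM. In ESCs the median log2 fold change was 0.04 for the proteasome, 0.02 for ribosome biogenesis, -0.05 for complex I, -0.12 for ATF4 targets and 0.04 for the cilium list. These lists were not tested for a difference between the cell types.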

How the data were processed

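RNA of 6 EpiLC libraries (3 exposed to Δ9-THC, 3 vehicle) and, for 1 comparison, of 6 ESC libraries was analysed. The authors selected poly(A) RNA with one of 2 kits (which kit made which library is not given in the sources used here), aligned reads with STAR, passed those with a unique position to HTSeq (union mode, strand ignored), removed genes with few counts and adjusted batches with ComBat-seq; the batches are not named. The deposited values are whole-number adjusted counts, separately adjusted for each cell type, so that levels are compared within a table only. Base calls were made with bcl2fastq 2.19.1.403 per the labels, and the build is named both as mm10 and as GRCm39.

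Counts were tested with edgeR 4.0.16 (quasi-likelihood, TMM, R 4.3.3) over all genes with a total above 10, with Benjamini-Hochberg adjustment; CPM are counts scaled to a TMM-corrected library total of 1000000. Fold changes are exposed over vehicle. Alternatives were RLE scaling, all genes kept, genes with 10 or more counts throughout, a block for the replicate number, offsets that take out per-library curves along GC content and exon length (natural splines, 5 degrees of freedom), block and offsets together, DESeq2 1.42.0 without and with the offsets, and each EpiLC library left out. An adjusted p-value that DESeq2 does not give was not counted. Values within a replicate number are log2 ratios of CPM plus 1. Deviations of the adjusted counts from the group means were correlated between libraries (closing section). As the batches are not named, this cannot show whether replicate numbers pair the samples. Whether same-numbered cultures shared an origin was not tested. GC content and exon length came from GENCODE M21 (GRCm38; 13696 of 13717 genes); genes without them kept library size offsets. The scripts were tested on simulated data.

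Genes were named if they had an unadjusted p under 0.01, no overlap between groups, a mean of at least 1 CPM and an unadjusted p under 0.05 with the block and the offsets (the 12 largest in each direction), if the study names them for EpiLCs, or if they were among the 3 smallest p-values or the highest CPM of a list. Others were named after their values were seen. The members, gene lists and rules were chosen with earlier results of these data known. No gene set was tested. At this depth counting error limits genes near 1 CPM. Spreads within groups are those of batch-adjusted counts. In Zfp36 the exposed libraries had a mean of 332 counts and an SD of 0.217 CPM. In Spp1 the vehicle libraries had a mean of 1583 counts and an SD of 0.576 CPM. These SDs are under the counting error of such counts, so narrow spreads and small SEs above are no measure of precision. How spreads compare with counting error over all genes was not tested. The result of 1 gene is not reported here.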

Additional observations from a re-analysis of the deposited data

Results flagged for a closer look

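The exposure effect differed between EpiLCs and ESCs in 4 genes by the test of the difference itself (edgeR, log2 scale, EpiLC effect minus ESC effect): 0.85 for Myo6, 1.05 for Cul9, 0.69 for Dzip1 and -0.67 for Zfp36, each with a Benjamini-Hochberg adjusted p of 0.0429. In EpiLCs the log2 fold changes were 0.65 for Myo6, 0.36 for Cul9, 0.43 for Dzip1 and -0.72 for Zfp36, and in ESCs -0.18, -0.68, -0.24 and -0.03. All 3 libraries of a group lay on one side of the other group in EpiLCs for these genes, which were chosen by a test that used these libraries. Over the 14 alternatives the difference kept its sign in the 4 genes, at 0.73 to 0.87 for Myo6, 0.83 to 1.09 for Cul9, 0.55 to 0.71 for Dzip1 and -0.69 to -0.65 for Zfp36, and the adjusted p ran from 1.6e-05 to 0.999.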

How the results depend on the processing

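Genes called in EpiLCs numbered 0 in the edgeR fits with RLE scaling, all genes kept, 10 or more counts throughout, the replicate block, the offsets and both, and 0 to 0 without single libraries; DESeq2 called 87, and 24 with the offsets. Genes that differed between EpiLCs and ESCs numbered 4, and 0 with the replicate block, with the offsets and with both, 133 with DESeq2 and 67 with DESeq2 and the offsets; they numbered 0 to 0 without single libraries, each of the 6 EpiLC libraries ending the 4 calls. In the adjusted counts, libraries of the same replicate number did not share a positive deviation. Their deviations had correlations of -0.986, -0.985 and -0.991, and no library correlated best with its own number. If the number was the batch, the adjustment would have removed a shared deviation, so these values cannot say whether the samples are paired. In edgeR the replicate block took the genes with an unadjusted p under 0.05 from 2069 to 291 (213 with the offsets). Of 111 genes followed over 1554 settings, 1511 kept direction and side of the threshold, 39 passed it in a DESeq2 fit, and 4 turned direction: Arrdc4 without exposed replicate 2 (range without single libraries -0.0062 to 0.12), and mt-Co1 without vehicle replicate 2 (-0.02), exposed replicate 1 (-0.01) and exposed replicate 2 (range -0.045 to 0.54). No gene passed the threshold in any edgeR fit of EpiLCs, so keeping the side of the threshold there only meant staying uncalled. Many of the followed genes had been chosen by their values in these libraries, so the tally adds no separate support. Of 854 settings of 61 list medians, 24 moved by more than the SD over replicate numbers, cilium and kinesin genes with the offsets among them (0.06 and 0.02). By this measure a list whose replicate numbers differ widely can hardly move. The mitochondrial genome had a median of 0.18, and -0.02 to 0.57 without single libraries, and did not count as moved. The cause of these changes was not tested. Precision is limited by 3 libraries a group.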

Other observations

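Further lists, chosen with earlier results of these data known, had small and mixed differences in exposed EpiLCs. Of 5 measured genes of the aryl hydrocarbon receptor pathway, which senses aromatic compounds, 4 had higher values, the median being 0.24 on the log2 scale (0.17 with the offsets), and the medians within replicate numbers 1, 2 and 3 were 0.31, -0.09 and 0.32. Hypoxia targets had 8 higher and 10 lower members with a median of -0.03, Adm being the lowest at -0.65. The BCL2 family of apoptosis regulators had 10 of 15 members higher (median 0.05), and imprinted genes 14 of 26 (median 0.01). Genes of epithelial adhesion had 6 higher and 10 lower members (median -0.04), and basement membrane and integrin genes 9 and 7 (median 0.03). Histone genes, whose messages mostly lack poly(A) tails, had 27 members in the table, 11 higher and 16 lower. Long noncoding and small RNA host genes had a median of -0.03, made of -0.48, 0.70 and -0.24 within the replicate numbers.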
